A study of Mus musculus with 24 samples.

Results

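IL-4 augmentation of the rosiglitazone response was measured here as a difference of responses in wild-type (WT) macrophages. For each of 3 WT mice, the log2 change under rosiglitazone (RSG) without IL-4 was subtracted from the change under RSG with IL-4. A positive difference means a higher RSG response in the presence of IL-4. The comparison used 12 WT arrays of the 24 arrays in the series, in 4 groups of 3. All cultures were bone marrow-derived macrophages of C57Bl/6 mice, grown with M-CSF at 20 ng/ml and kept for 10 days. The WT groups were IL-4 at 20 ng/ml with 1 µM RSG, IL-4 at 20 ng/ml with vehicle, RSG at 1 µM without IL-4, and vehicle without IL-4 (control vehicle). The vehicle was a mix of DMSO and ethanol. Each mouse gave 1 culture and 1 array in every condition, and the labels number the mice. The 12 arrays of 3 Stat6 knockout (KO) mice carried the same treatments and were used for the spread of the fit and for a comparison of genotypes. The age and sex of the mice were not given in the sources used here. By the study's methods each value was a ratio to the median of its probe set, so it gives no absolute level, and levels of different genes could not be compared. Over the 24 arrays, 38889 of 45037 probe sets had a median of 1 within 0.001, and the rest did not.

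RSG is a thiazolidinedione drug and an agonist of PPARγ, a nuclear receptor that binds DNA as a heterodimer with RXR and regulates genes of fatty acid uptake, storage and oxidation. IL-4 signals through its receptor to the transcription factor STAT6 and drives the alternative activation of macrophages, a state marked by arginase, chitinase-like proteins and the mannose receptor. PPARγ is itself induced by IL-4 in macrophages. The question behind the comparison was whether a macrophage answers a PPARγ ligand differently when IL-4 is present.

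Stat6 had log2 ratios of 0.73 to 1.15 on the 12 WT arrays, against -2.03 to -1.56 on the 12 KO arrays. Means over 13 macrophage identity genes lay between -1.23 and -1.04 on the 6 WT arrays with IL-4 and between 0.07 and 0.33 on the 6 without, and ratios cannot show whether such markers are present at all. A few WT control vehicle arrays stood apart. The mean of 18 stromal fibroblast markers was 1.36, 3.39 and -0.23 on those of mice 1, 2 and 3, against -0.98 to 0.53 on the other 9 WT arrays. The mean of 28 alternative activation genes was 1.17 on the control vehicle array of mouse 3, against -0.65 and -0.97 on those of mice 1 and 2. Each control vehicle array enters the difference of responses with a positive sign, so many results below are also given with 1 or more of these arrays left out. Bulk arrays cannot tell fewer cells of a type from less RNA per cell.

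The RSG response was higher with IL-4 for Fabp7, for 1 probe set each of Brca1, Nfkbiz and Axl, and for a probe set with no symbol listed. Brca1, Nfkbiz and Axl have further probe sets, and none of those was called. Of 45037 probe sets, 5 were called higher and 0 lower by limma (0.0111%), at an adjusted p under 0.05 and a difference of at least 1.5-fold. At limma's unadjusted p under 0.05, 1494 probe sets were higher (3.32%) and 1377 lower (3.06%), 2871 in all (6.37%). The methods' t-test, unpaired with equal variances, was applied here to the responses of the mice with and without IL-4. The methods do not describe this use, and it ignores that both responses come from the same mice. It called 0 after adjustment, against 3030 at its unadjusted p. A limma fit on the 12 WT arrays alone also called 0, against 2836. The differences of the 3 mice hardly moved together across probe sets, with correlations of 0.0491, 0.0250 and 0.0157 between mice, a description over 45037 probe sets that share arrays. A missing call says little about a gene with 3 mice, and so does an unadjusted p under 0.05 on its own. At that p, a share near 0.05 would pass with no difference anywhere, and 6.37% did. SE or intervals are given for most genes named below.

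Fabp7 encodes the brain-type fatty acid binding protein, a carrier of the same family as the PPARγ target Fabp4. Its log2 ratios were 3.31, 3.66 and 3.88 on IL-4 RSG arrays of mice 1, 2 and 3, against 0.11, 1.01 and 1.13 on IL-4 vehicle arrays. In cultures without IL-4 they were -0.37, 0.55 and 0.39 with RSG, against -0.49, -0.12 and 0.12 with vehicle. Every IL-4 RSG array stood above all other WT arrays. The RSG response was 3.20, 2.64 and 2.75 with IL-4 and 0.12, 0.67 and 0.26 without it. The difference was 2.51 ± 0.24 (SE, n = 3 mice; adjusted p = 0.00235 in limma), a 5.71-fold higher response with IL-4. Fabp7 was the 1 called member of 16 measured genes of fatty acid uptake and binding.

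Brca1 encodes a ubiquitin ligase of DNA double-strand break repair. On probe set 1424629_at, its log2 ratios were 2.26, 2.54 and 2.24 with IL-4 and RSG, against 0.45, 0.67 and -0.10 with IL-4 and vehicle. Without IL-4 the ratios were -0.54, -0.61 and -1.06 with RSG, against 0.09, -0.22 and -0.56 with vehicle. The signal was thus higher under RSG in all 3 mice with IL-4 and lower in all 3 without. The difference was 2.51 ± 0.24 (adjusted p = 0.00235 in limma). The other 3 probe sets of Brca1 were not called and did not move alike. Probe set 1451417_at differed by 2.03 ± 1.39 and 1424630_a_at by 2.80 ± 1.51, whereas 1427698_at differed by -0.89 ± 0.41.

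Nfkbiz encodes IκBζ, a nuclear IκB protein that controls a subset of NF-κB target genes. On probe set 1457404_at, its log2 ratios were -2.83, -3.08 and -2.63 on IL-4 RSG arrays, against -5.72, -6.39 and -6.64 on IL-4 vehicle arrays. Without IL-4 they were 0.05, -0.23 and 0.39 with RSG, against -0.23, 0.35 and 0.25 with vehicle. The IL-4 RSG arrays lay above the IL-4 vehicle arrays and below every array without IL-4. The difference of responses was 3.46 ± 0.38 (adjusted p = 0.00593 in limma). The IL-4 vehicle array of mouse 3 stood at the lowest ratio in the table, 0.01 before the log, where lower ratios may have been set to that value. If so, the response of that mouse with IL-4 is a lower bound. Without the array the difference was 3.15 (adjusted p = 0.0155 in limma). The other probe sets of Nfkbiz, 1417483_at and 1448728_a_at, differed by 0.73 ± 0.37 and 1.22 ± 0.63 and were not called.

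Axl encodes a receptor tyrosine kinase through which macrophages take up apoptotic cells and restrain inflammatory signalling. On probe set 1423586_at it was low with IL-4, as Nfkbiz was, with log2 ratios of -2.74, -2.63 and -2.62 under RSG, against -5.85, -5.28 and -5.22 under vehicle. Without IL-4 the ratios were 0.24, 0.45 and 0.73 under RSG, against -0.94, -0.52 and -0.13 under vehicle. Axl was higher under RSG in both settings, by 3.11, 2.65 and 2.59 with IL-4 and by 1.18, 0.97 and 0.85 without. The difference was 1.78 ± 0.21 (adjusted p = 0.00929 in limma). It came from ratios far below 1: with 0.1 added before the log, it was 0.16 and not called (adjusted p = 0.978). Nfkbiz also lost its call in that setting, at 1.13 (adjusted p = 0.342). A separate Axl probe set, 1438621_x_at, differed by 0.29 ± 1.81.

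The remaining called probe set, 1418129_at, is named here by its identifier. Its log2 ratios were -0.60, -1.61 and -0.68 with IL-4 and RSG, against -2.07, -3.23 and -2.72 with IL-4 and vehicle. The arrays without IL-4 read 0.06, -1.72 and -0.22 with RSG, against 1.30, 0.32 and 0.89 with vehicle. As for Brca1, the response was positive in all 3 mice with IL-4 and negative in all 3 without. The difference was 3.18 ± 0.38 (adjusted p = 0.0109 in limma).

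**Figure D1:**
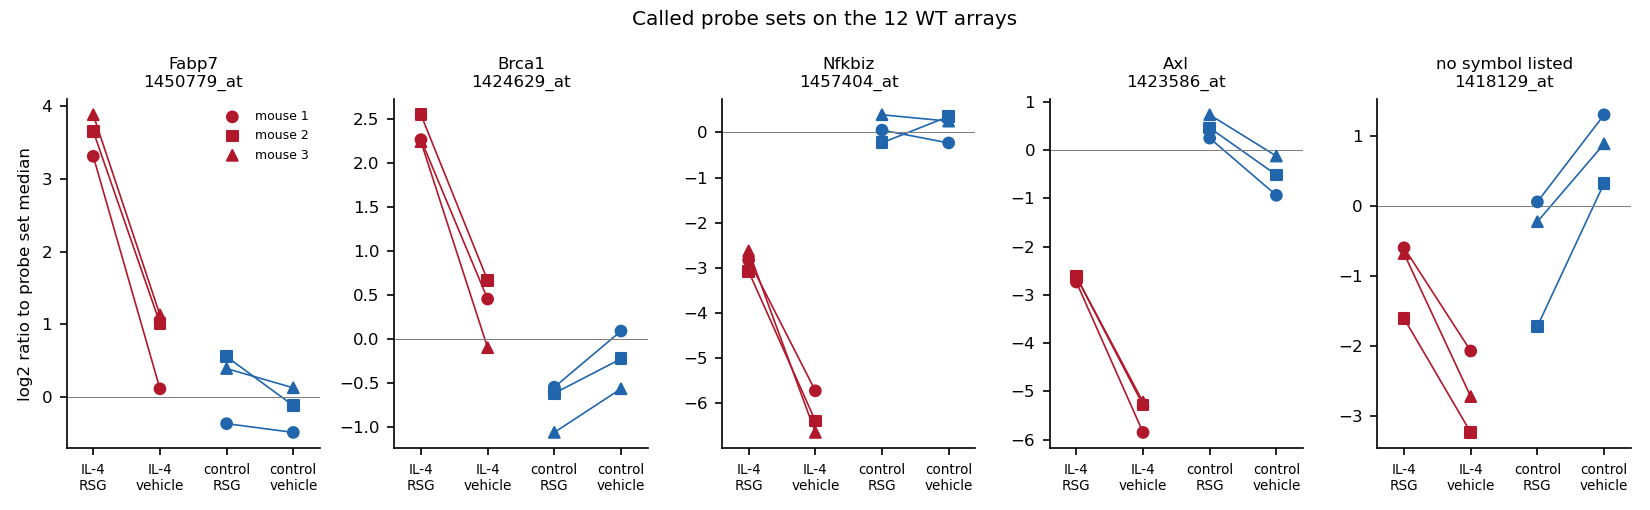
Log2 ratios (y axis) of the 5 called probe sets on the 12 WT arrays, by group (x axis), with 1 symbol per mouse and lines joining the RSG and vehicle arrays of a mouse. Fabp7 and Brca1 were highest on the 3 IL-4 RSG arrays, while Nfkbiz and Axl were below every array without IL-4 on all 6 IL-4 arrays and less so under RSG.

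No called gene kept its call in every setting. Brca1 and Fabp7 were called in 15 and 16 of the 18 fits that left out a mouse or a WT array. Nfkbiz was called in 15, Axl in 13 and 1418129_at in 12. Without mouse 3 no probe set was called, against 3000 at limma's unadjusted p; without mouse 1 Nfkbiz was the 1 of the 5 still called, and without mouse 2 it was Fabp7. Without the KO mouse 5, whose arrays enter through the spread alone, Brca1 and Fabp7 were still called. The values moved little in these fits, between 2.23 and 2.79 for Fabp7, 2.36 and 2.66 for Brca1, 3.15 and 3.88 for Nfkbiz and 1.65 and 1.91 for Axl.

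The start regions of the called genes are shown with a search for the sites of PPARγ with RXR and of STAT6, the factors through which RSG and IL-4 act. RefSeq windows of 300 bases (assembly GRCm38.p6), from 250 bases before to 50 after the start, were given for 3 of the 4 named called genes. They were chr10:57784673-57784972 on the plus strand for Fabp7, chr7:25788684-25788983 on the minus strand for Axl and chr11:101551906-101552205 on the minus strand for Brca1. The window of Cd36, the fatty acid translocase and a textbook PPARγ target, is shown beside them (chr5:17835847-17836146, minus strand), with motif matches in capitals.
Fabp7: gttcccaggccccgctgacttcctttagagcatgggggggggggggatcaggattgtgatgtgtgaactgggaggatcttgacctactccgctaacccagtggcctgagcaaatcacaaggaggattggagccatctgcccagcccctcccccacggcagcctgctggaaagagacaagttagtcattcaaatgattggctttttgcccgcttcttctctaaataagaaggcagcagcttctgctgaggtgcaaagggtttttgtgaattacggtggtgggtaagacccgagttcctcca
Axl: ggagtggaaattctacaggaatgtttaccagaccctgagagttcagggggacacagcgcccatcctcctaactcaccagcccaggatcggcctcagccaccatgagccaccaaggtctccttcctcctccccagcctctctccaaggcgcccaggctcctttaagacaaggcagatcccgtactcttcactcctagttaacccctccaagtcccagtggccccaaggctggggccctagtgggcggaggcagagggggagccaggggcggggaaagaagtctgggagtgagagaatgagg
Brca1: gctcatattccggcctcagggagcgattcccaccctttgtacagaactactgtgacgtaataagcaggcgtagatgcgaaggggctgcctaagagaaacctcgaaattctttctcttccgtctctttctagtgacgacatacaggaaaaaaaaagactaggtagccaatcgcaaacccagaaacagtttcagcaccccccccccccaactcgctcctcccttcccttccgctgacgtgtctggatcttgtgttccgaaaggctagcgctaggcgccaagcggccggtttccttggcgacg
Cd36: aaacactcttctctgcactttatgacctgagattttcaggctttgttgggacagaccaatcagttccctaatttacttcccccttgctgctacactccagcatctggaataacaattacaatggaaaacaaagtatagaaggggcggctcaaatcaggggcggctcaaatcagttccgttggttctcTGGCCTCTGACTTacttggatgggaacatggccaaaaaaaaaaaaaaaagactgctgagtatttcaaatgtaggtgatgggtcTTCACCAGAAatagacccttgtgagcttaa
The motifs searched on both strands were the PPAR response element AGGTCANAGGTCA, with at most 2 mismatches outside the N, and the STAT6 site TTCNNNNGAA. Cd36 held a match to the first starting 63 bases before the start of transcription, with 2 mismatches, and a match to the second 20 bases after it. The windows of Fabp7, Axl and Brca1 held 0 matches to either. Cd36 does not stand for known targets in general. Of 14 windows given for genes of the study text, 2 held the first motif and 3 the second, and only Cd36 held both. Its own difference of responses, -0.15, was not called. Among all 32851 windows of the table, 3.86% held the first motif and 6.95% the second. A match is no proof of a site, and 300 bases leave out distal elements.

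The genes that the study text names as PPARγ targets did not pass the test for a difference of responses. Of 17 such genes and IL-4 markers, 15 were measured and 0 were called. Fabp4, the adipocyte and macrophage fatty acid binding protein, had RSG responses of 0.32, 0.51 and 0.88 with IL-4 and -0.17, -0.07 and 0.64 without. The difference was positive in all 3 mice and measured 0.44 ± 0.26 (95% interval -0.13 to 1.00; adjusted p = 0.874 in limma). All 4 probe sets of Fabp4 had a positive difference, between 0.25 and 0.65. Angptl4, a secreted inhibitor of lipoprotein lipase, was higher under RSG in every mouse and setting, by 2.30, 2.38 and 4.57 with IL-4 and 2.34, 2.33 and 2.56 without. Its difference of 0.68 ± 0.86 came from mouse 3, whose IL-4 vehicle array read -2.61, against -0.50 and -0.33 in mice 1 and 2. A separate Angptl4 probe set, 1417130_s_at, differed by 1.27 ± 0.29 (unadjusted p = 6.2e-04, adjusted p = 0.238 in limma).

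Cd36 had responses of 0.25, 0.60 and 0.61 with IL-4, against 0.57, 1.03 and 0.32 without. The groups overlapped and the difference was -0.15 ± 0.29 (95% interval -0.78 to 0.47). The other Cd36 probe sets differed by -0.39 ± 0.19 and -0.30 ± 0.18 and were not called. Scd1, the stearoyl-CoA desaturase and a target of the oxysterol receptor LXR as well as of PPARs, had a wider gap, with responses of 2.13, 2.29 and 2.60 with IL-4, against -0.42, -0.49 and 0.48 without. Its difference of 2.48 ± 0.96 had an unadjusted p of 0.0227 and an adjusted p of 0.701. The other Scd1 probe set differed by 0.83 ± 0.62. Pdk4, which inhibits pyruvate dehydrogenase, varied from mouse to mouse, at 3.31, -0.18 and -0.44 with IL-4 and -0.75, -2.83 and 0.50 without.

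The receptors themselves showed no call. Pparg had negative responses in every mouse, at -1.23, -1.39 and -1.13 with IL-4 and -0.94, -0.05 and -1.12 without, and a difference of -0.55 ± 0.35 (95% interval -1.31 to 0.22). Rxra, the partner of PPARγ, differed by -0.37 ± 0.29, 0.28 ± 0.23 and 0.77 ± 0.93 on its probe sets. Nr1h3, which encodes LXRα, differed by -0.10 ± 0.31 and Stat6 by 0.13 ± 0.17. Of 17 measured PPARs, RXRs and coregulators, 1 was higher at unadjusted p under 0.05 (Cebpb, 0.57 ± 0.17) and 1 lower (Nrip1, a nuclear receptor corepressor, -2.62 ± 1.17), and 0 were lower without the control vehicle array of mouse 1. Over all 18193 genes, 696 were higher (3.83%) and 575 lower (3.16%) at that p.

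**Figure D2:**
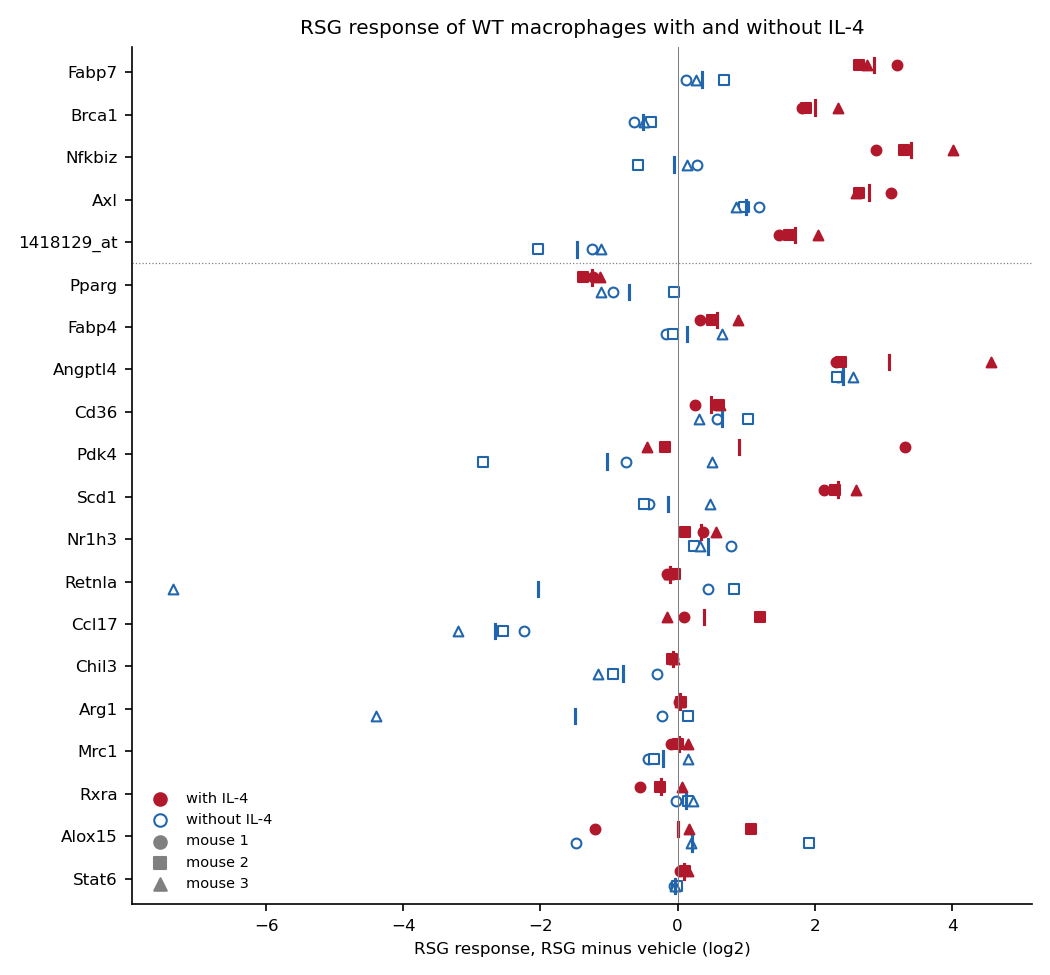
RSG response (x axis, log2 of RSG minus vehicle) of the 5 called probe sets, above the dotted line, and of 15 genes of the study text, with filled red symbols for cultures with IL-4, open blue ones for cultures without and short bars for means. The called probe sets have no overlap between settings, while Fabp4 and Cd36 overlap and Retnla and Arg1 are each set apart by mouse 3 without IL-4.

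Lipid metabolism was then read by gene group. Apart from Fabp7 and the genes of the study text, the members named from here to the end of the list comparisons were chosen after their values were seen, most of them for an unadjusted p under 0.05, and none of them was called. The list counts below stand beside 3.83% of all genes higher at that p, 3.16% lower and 52.1% with a positive difference. This background moved when an array was left out. Without the control vehicle array of mouse 1, 2 or 3, 2595, 2665 and 3561 of 45037 probe sets passed that p, against 2871 in all. In mitochondrial fatty acid oxidation, 3 of 21 genes were higher and 0 lower at that p. The median difference was 0.21, against 0.02 for all genes, and 16 of 21 differences were positive. Acaa2, the thiolase of the last step of β-oxidation, came closest to a call (1.02 ± 0.14, adjusted p = 0.0511 in limma). Its log2 ratios were 1.33, 1.21 and 1.48 with IL-4 and RSG, against 0.20, 0.28 and 0.15 with IL-4 and vehicle. Cultures without IL-4 had 0.12, 0.16 and 0.22 with RSG, against 0.02, 0.08 and 0.08 with vehicle. The IL-4 RSG arrays of Acaa2 did not overlap with any other WT array, and it was called in the fit with no replicate block (adjusted p = 0.0223). Eci2 and Etfb, an enoyl-CoA isomerase and a subunit of the electron transfer flavoprotein, differed by 0.67 ± 0.22 and 0.41 ± 0.18. The median differences of this list in mice 1, 2 and 3 were 0.27, 0.29 and 0.12.

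Of 14 genes of peroxisomal lipid metabolism, 3 were higher and 0 lower at unadjusted p under 0.05, with a median of 0.27. They were Acaa1b, a peroxisomal thiolase (1.27 ± 0.56), Pex11a, a peroxisome division factor (1.03 ± 0.43), and Eci2, which the mitochondrial list also holds. Without the control vehicle array of mouse 1, 1 of the 14 was higher. Of 16 genes of fatty acid uptake and binding, 2 were higher and 1 lower, with a median of 0.03, and 4 were higher without the control vehicle array of mouse 3. Besides Fabp7, Olr1, a receptor for oxidized lipoprotein, differed by 2.40 ± 0.78, with responses of 2.59, 2.46 and 2.38 with IL-4 and 1.48, 0.74 and -2.00 without. The lower one was Fabp3, the heart-type fatty acid binding protein (-0.55 ± 0.19). Among 21 lipid droplet and lipolysis genes, 1 was higher and 1 lower, and 2 were higher without that array. Hilpda, a droplet protein that inhibits adipose triglyceride lipase, differed by 1.77 ± 0.32 (adjusted p = 0.125 in limma), with responses of 1.77, 2.08 and 1.36 with IL-4, against -0.17, 0.10 and -0.04 without. Pnpla2, which encodes that lipase, differed by -1.27 ± 0.41. Its responses were 0.03, -0.22 and 0.52 with IL-4, against 1.48, 1.45 and 1.20 without.

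Genes of sterol and fatty acid synthesis came next. Of 19 measured, 7 were higher at unadjusted p under 0.05 (36.8%, against 3.83% of all genes) and 0 lower, with a median difference of 0.57. Idi1, an isomerase of the isoprenoid pathway, differed by 1.65 ± 0.35 (adjusted p = 0.215 in limma), with log2 ratios of -0.80, -0.73 and -1.02 with IL-4 and RSG, against -1.61, -2.04 and -1.71 with IL-4 and vehicle. Without IL-4 they were 0.37, -0.39 and 0.26 with RSG, against 1.32, 0.59 and 0.45 with vehicle. RSG thus went with more Idi1 when IL-4 was present and less when it was not. Dhcr7, Insig1, Srebf2, Mvd, Fasn and Fdps made up the rest, between 0.79 and 1.03. The pattern was not shared by all mice, since the list median was 1.27 and 0.74 in mice 1 and 2 and -0.14 in mouse 3. Without the control vehicle array of mouse 1, 3 of the 19 genes were higher. Of 16 LXR target and cholesterol efflux genes, 2 were higher and 2 lower, with a median of -0.07; Abca1, the cholesterol exporter, was among the lower (-0.75 ± 0.31) and Lpcat3, a phospholipid acyltransferase, among the higher (0.61 ± 0.21). Without the control vehicle array of mouse 1, 0 of these 16 were lower.

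Proliferation had the largest share of higher genes among the 26 lists. Of 20 measured genes, 13 were higher (65.0%, against 3.83% of all genes) and 0 lower at unadjusted p under 0.05. Differences were positive for 17, against 52.1% of all genes. The responses of the mice did not overlap in the higher direction for 11, against 7.21% of all genes. The median difference was 0.96, and 1.21, 1.36 and 0.69 in mice 1, 2 and 3. The mean log2 ratio of the list was -1.52, -0.66 and -1.40 with IL-4 and RSG, against -2.08, -1.84 and -1.67 with IL-4 and vehicle. Without IL-4 it was -0.51, -0.05 and -0.45 with RSG, against 0.32, 0.39 and -0.12 with vehicle. The list therefore stood lower on all IL-4 arrays than on all others, and within each mouse RSG went with a higher mean in the presence of IL-4 and a lower one in its absence.

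The same arrangement was seen for single genes. Mki67, the Ki-67 antigen, had responses of 1.02, 1.63 and 0.62 with IL-4, against -0.78, -0.40 and -0.30 without, a difference of 1.58 ± 0.30 (adjusted p = 0.149 in limma). Rrm2, a ribonucleotide reductase subunit, differed by 2.68 ± 0.50 and the cyclin gene Ccna2 by 2.54 ± 0.49. Mcm6, Tyms and Pcna, which serve DNA replication and nucleotide synthesis, were the 3 with a negative difference, at -2.96, -1.14 and -0.10, and none of them passed the unadjusted p. The count of higher genes was 10 to 15 without 1 of the 3 control vehicle arrays, 12 without the 2 arrays with the highest stromal means and 14 without the control vehicle arrays of mice 2 and 3. It was 12 with no replicate block.

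**Figure D3:**
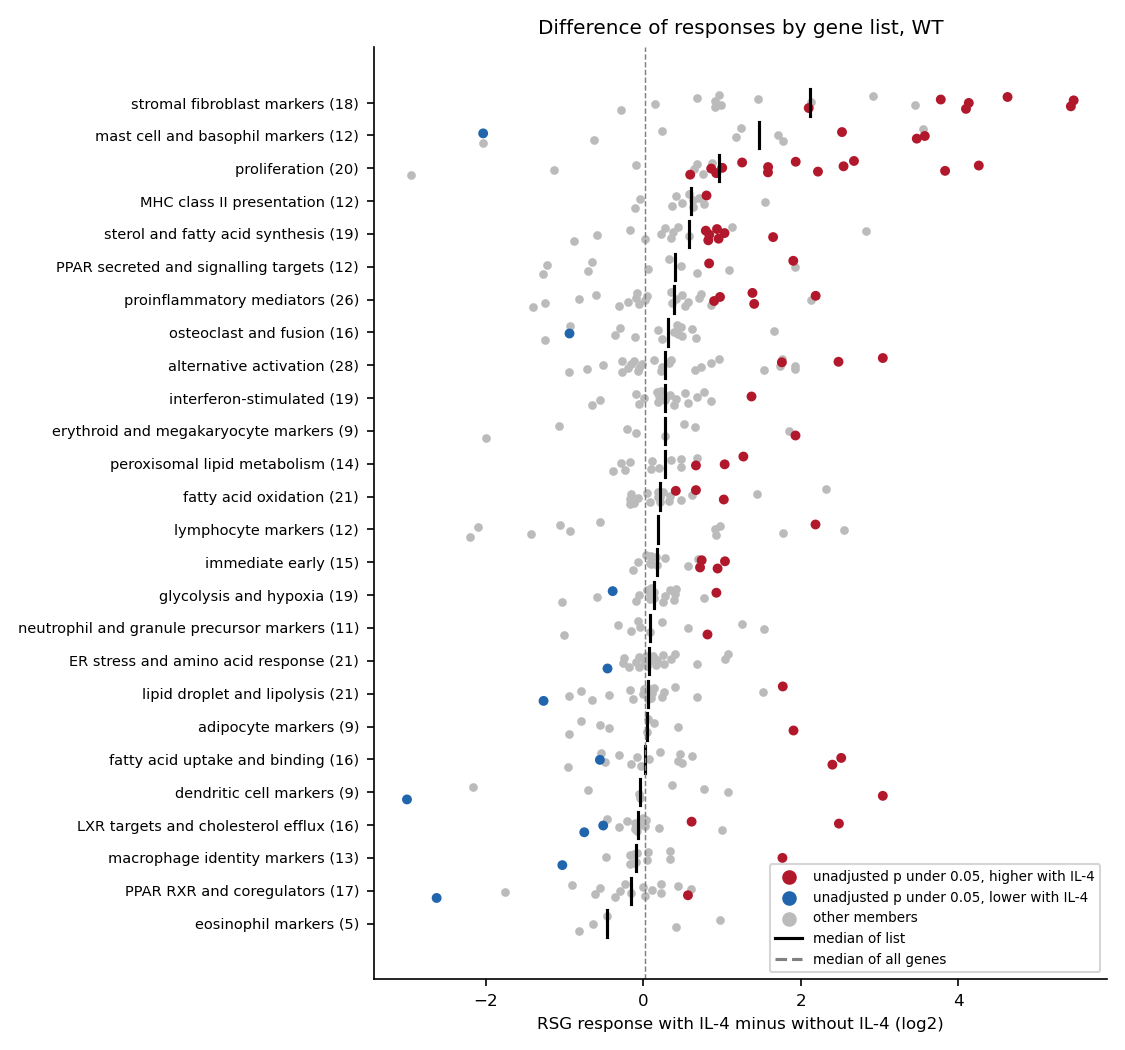
Difference of RSG responses (x axis, log2, with IL-4 minus without) of the measured members of 26 gene lists, with the number of members in brackets; black bars are list medians and the dashed line is the median of all genes. Red and blue points passed an unadjusted p under 0.05; 13 of 20 proliferation genes, 7 of 19 sterol and fatty acid synthesis genes and 7 of 18 stromal markers are red.

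Nfkbiz belongs to the NF-κB pathway, so the inflammatory genes were counted as well. Of 26 proinflammatory mediators, 5 were higher and 0 lower at unadjusted p under 0.05, against 3.83% and 3.16% of all genes. The median was 0.39, with mouse medians of 0.63, 0.58 and -0.20, and 3 mediators were higher with no replicate block. Nfkbia, the inhibitor IκBα that NF-κB itself induces, differed by 0.90 ± 0.18 (adjusted p = 0.186 in limma), with responses of 1.02, 1.21 and 0.98 with IL-4 and 0.11, 0.03 and 0.38 without. Cxcl2, a neutrophil-attracting chemokine, differed by 2.19 ± 0.46. Its log2 ratios were -2.98, -2.45 and -2.12 with IL-4 and RSG, against -4.99, -4.52 and -3.19 with IL-4 and vehicle. Without IL-4 they were 0.05, -0.74 and 0.05 with RSG, against 0.66, -0.17 and 0.28 with vehicle. Like Nfkbiz, Cxcl2 was lowest with IL-4 and vehicle and lay between that group and the cultures without IL-4 when RSG was added. Of 15 immediate early genes, 4 were higher and 0 lower, with a median of 0.18. The count was 2 without the control vehicle array of mouse 1 (median 0.11) and 2 without that of mouse 3 (median 0.42). Of 19 interferon-stimulated genes, 1 was higher, Ifit1, and 15 were positive; 2 were higher without the control vehicle array of mouse 2.

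Among the markers of alternative activation, the list median and the values of Retnla and Arg1 depended on a single array. Of 28 genes, 3 were higher and 0 lower at unadjusted p under 0.05, with a median of 0.28. They were Ccl17, the chemokine gene Ccl22 (2.48) and Il1rn, an interleukin-1 receptor antagonist (1.76). Without the control vehicle array of mouse 3 the count was 3 higher and 3 lower and the median -0.11. Retnla, a secreted protein of alternatively activated macrophages, had responses of -0.16, -0.04 and -0.12 with IL-4, against 0.44, 0.82 and -7.35 without. Its log2 ratio on that array was 5.88, against -1.89 and -2.10 on the control vehicle arrays of mice 1 and 2. The difference was 1.93 ± 1.83 in all and -0.72 without the array. Arg1, arginase, had 0.02, 0.06 and 0.03 with IL-4, against -0.23, 0.15 and -4.40 without, and its difference was 1.53 ± 1.30 in all and -0.10 without the array. Tgm2, also on the list, was counted by a probe set that differed by 1.73 (unadjusted p = 0.340 in limma). Other Tgm2 probe sets differed by 1.54 ± 0.25 (adjusted p = 0.0896 in limma) and 1.21 ± 0.24 (adjusted p = 0.166 in limma). The former differed by 1.64, 1.87 and 1.12 in mice 1, 2 and 3 and was called with no replicate block (adjusted p = 0.0418). Its log2 ratio on the control vehicle array of mouse 3 was 0.22, against 0.61 and -0.13 on those of mice 1 and 2.

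Chil3 and Mrc1, a chitinase-like protein and the mannose receptor, differed by 0.73 ± 0.45 and 0.23 ± 0.22. Alox15, a lipoxygenase, differed by -0.20 ± 1.24. Ccl17, a chemokine for T helper cells, was apart from these, since RSG went with less of it in every mouse without IL-4, at -2.23, -2.55 and -3.21, and responses with IL-4 were 0.10, 1.19 and -0.15. Its difference was 3.04 ± 1.02 (unadjusted p = 0.0101, adjusted p = 0.595 in limma), and 2.40 without the control vehicle array of mouse 3. The list of 12 genes of MHC class II presentation followed that array too, with a median of 0.60 in all, 1 gene higher and 0 lower, and 0.18 with 0 genes higher without it. Without those of mice 1 and 2, 3 and 4 genes were higher.

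Markers of other cell types were counted beside these groups. Of 18 stromal fibroblast markers, 7 were higher (38.9%, against 3.83% of all genes) and 0 lower at unadjusted p under 0.05. Differences were positive for 17 and the median was 2.11, with mouse medians of 2.34, 4.14 and 0.50. Col1a2, a chain of type I collagen, had log2 ratios of 0.11, 1.54 and -1.84 with IL-4 and RSG, against -4.08, 0.46 and -3.23 with IL-4 and vehicle. Without IL-4 they were -0.12, 0.89 and -0.78 with RSG, against 2.83, 6.15 and 0.75 with vehicle. Without the control vehicle array of mouse 2, 3 of the 18 were higher and the median was 1.45. Of 12 mast cell and basophil markers, 3 were higher and 1 lower, with a median of 1.47 in all, and 1 was higher and 1 lower with a median of 0.38 without the control vehicle array of mouse 3. The part of stromal or mast cells in the proliferation, sterol and inflammatory counts was not tested.

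**Figure D4:**
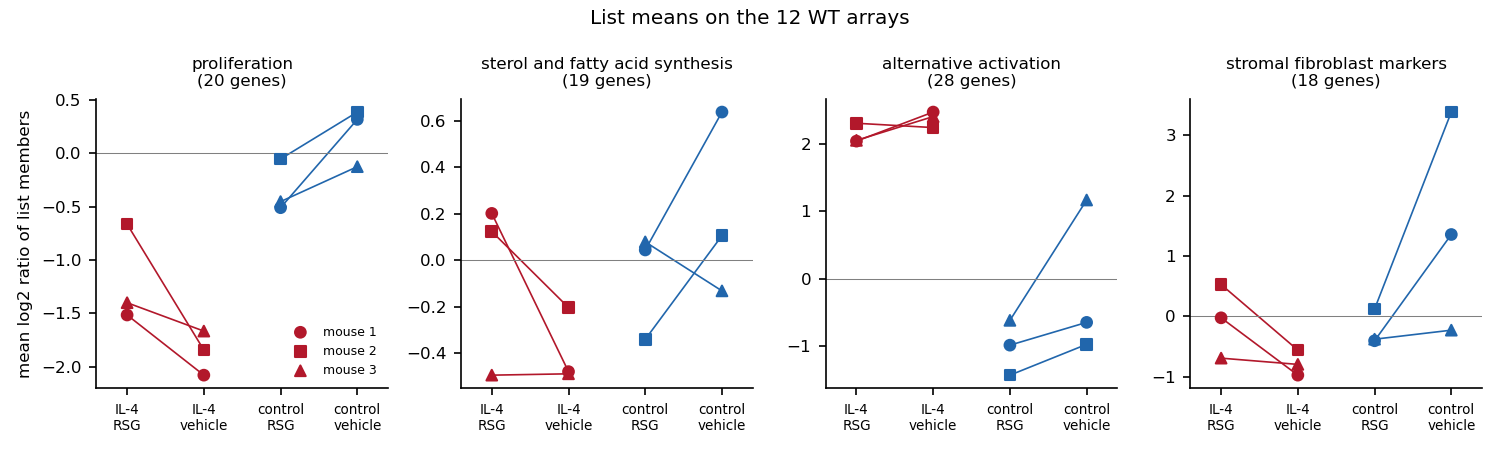
Mean log2 ratio (y axis) of the measured members of 4 gene lists on each of the 12 WT arrays, by group (x axis), with 1 symbol per mouse and lines joining the RSG and vehicle arrays of a mouse. The proliferation mean is lower on all IL-4 arrays, the alternative activation mean of the control vehicle array of mouse 3 is 1.17 and the stromal mean of that of mouse 2 is 3.39.

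Lower responses with IL-4 produced no call. In a fit with no replicate block, 8 probe sets were higher and 5 lower, 13 in all, of which 3 were among the 5 called with the mouse as a block. Fabp7 (adjusted p = 0.0717 in limma) and 1418129_at (adjusted p = 0.119 in limma) lost their call there. Of the 5 lower probe sets of that fit, those with a symbol were Prkcb, Emb, Slc7a14 and Sema4b, named after their values were seen. Prkcb, a protein kinase C isoform, had log2 ratios of -1.72, -1.92 and -1.58 with IL-4 and RSG, against 0.42, 0.42 and 0.25 with IL-4 and vehicle. Without IL-4 they were 0.32, -0.23 and 0.25 with RSG, against 0.91, 0.76 and 0.53 with vehicle. RSG went with less Prkcb in both settings and with the lowest values on the IL-4 RSG arrays. The difference was -1.49 ± 0.24 (adjusted p = 0.0896 with the block and 0.0420 without it, limma). Emb, a membrane glycoprotein that chaperones monocarboxylate transporters, differed by -0.97 ± 0.16. Of 13 macrophage identity genes, 1 was higher and 1 lower at unadjusted p under 0.05, against 3.83% and 3.16% of all genes. The list median was -0.09. The higher one was Cx3cr1 (1.77) and the lower one Fcgr1, the high-affinity IgG receptor (-1.03 ± 0.21). Fcgr1 had responses of -0.94, -0.67 and -0.98 with IL-4, against 0.39, 0.15 and -0.05 without. Its difference in KO macrophages was also -1.03 ± 0.21.

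Of the 1494 probe sets higher at unadjusted p under 0.05, 437 (29.3%) had a response under 1.5-fold in both settings, and 422 (28.2%) had responses of at least 1.5-fold in opposite directions, up with IL-4 and down without it. For 358 (24.0%), the response reached 1.5-fold with IL-4 alone, and for 250 (16.7%) the higher difference came from a decrease without IL-4 alone. The response was up by at least 1.5-fold in both settings, as for Axl, for 17 (1.14%), and down by as much in both for 10 (0.669%). Of the 1377 lower probe sets, 574 (41.7%) had opposite responses of that size and 230 (16.7%) had none of that size. All these probe sets were selected on the difference itself, which favours opposite responses even where there is only noise. No share over all 45037 probe sets stands beside these shares, so they describe the selected probe sets and show no pattern of the response.

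The same difference was taken in KO macrophages to set the WT result against cells without STAT6. It was tested directly as WT minus KO, and 7 of 45037 probe sets were called (0.0155%), 6 higher and 1 lower in WT, against 3170 at limma's unadjusted p under 0.05 (7.04%). The KO difference alone gave 25 calls (0.0555%), against 3512 at the unadjusted p (7.8%). Axl differed between genotypes by 2.79 ± 0.29 (adjusted p = 0.00556 in limma), with per-mouse differences of 1.93, 1.68 and 1.74 in WT, against -1.23, -1.21 and -0.60 in KO. Brca1 (1424629_at) differed by 3.14 ± 0.35 (adjusted p = 0.00556), with 2.44, 2.27 and 2.83 in WT, against -0.73, -0.31 and -0.84 in KO. For both, the WT and KO mice lay on opposite sides of 0. In KO cultures with IL-4, Axl read 0.30, 0.23 and 0.51 under RSG, against 0.12, 0.37 and 0.31 under vehicle, so the low Axl ratios of WT cultures with IL-4 were not seen there. The WT part of the Axl difference came from those low ratios and lost its call with 0.1 added before the log.

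The WT and KO arrays with IL-4 also differed in markers of other cells. The mean of 12 mast cell and basophil markers was -0.79 to 1.25 on the 6 WT arrays with IL-4, against 4.60 to 5.44 on the 6 KO ones. The mean of 11 neutrophil and granule precursor markers was -3.95 to -2.97 in WT, against 3.24 to 3.62 in KO, and that of 12 lymphocyte markers -0.64 to 0.23 in WT, against 2.42 to 3.76 in KO. None of these ranges overlapped between genotypes. Stromal means on the KO control RSG arrays were 1.57, 1.67 and 5.24, against -0.59, -0.45 and 0.64 on the KO control vehicle arrays. The stromal list had a median difference of 2.11 in WT, against -2.48 in KO. In KO, 10 of its 18 markers were lower at unadjusted p under 0.05 and 0 higher, where 3.45% of all genes were lower and 5.11% higher. Their part in the genotype differences was not tested.

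Fabp7 had KO differences of 0.48, 0.78 and 1.59, lower than all 3 WT values, but the genotype difference of 1.56 ± 0.34 was not called (adjusted p = 0.218 in limma). Nfkbiz (2.87 ± 0.53, adjusted p = 0.141) and 1418129_at (2.65 ± 0.54, adjusted p = 0.173) were not called either. Ifit1, an interferon-induced antiviral gene, differed by 3.43 ± 0.42 (adjusted p = 0.0129), with 1.19, 1.66 and 1.26 in WT, against -1.65, -2.70 and -1.83 in KO. It did not stand alone in KO, where 16 of the 19 interferon-stimulated genes were lower at unadjusted p under 0.05 and 0 higher. The median difference of that list was 0.28 in WT, against -1.60 in KO. Its mean on WT arrays with IL-4 was -0.93 to -0.53 with RSG, against -1.24 to -0.85 with vehicle. On KO arrays with IL-4 it was 0.87 to 1.03 with RSG, against 2.67 to 3.09 with vehicle. Sema4b, a membrane semaphorin, was the 1 called gene with a lower difference in WT, by -7.77 ± 0.81 (adjusted p = 0.00556). Its differences were -3.72, -3.85 and -1.81 in WT, against 4.83, 3.82 and 5.29 in KO. The other Sema4b probe set, 1455678_at, differed between genotypes by -0.76 ± 0.30 and was not called (adjusted p = 0.617). Both genes were named after their values were seen. None of the 15 genes of the study text had a called genotype difference.

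**Figure D5:**
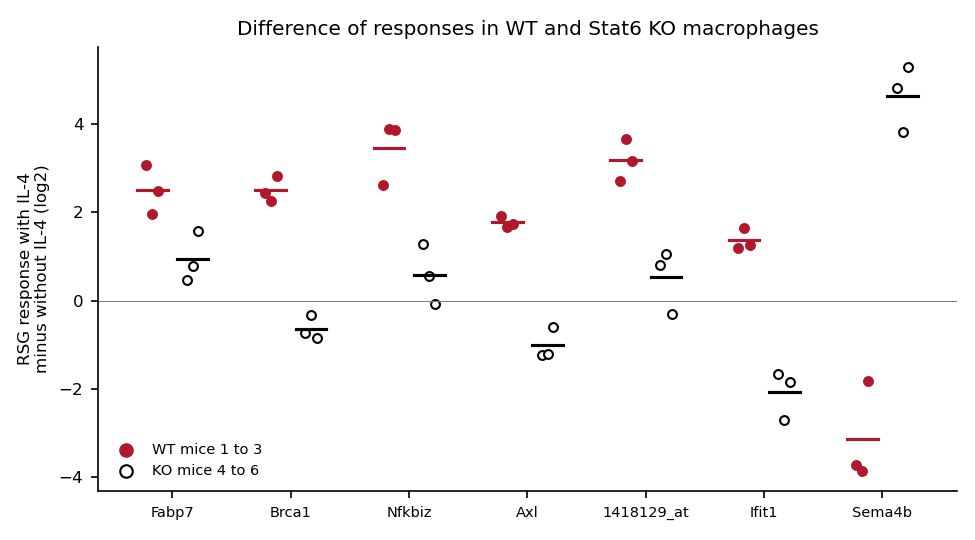
Difference of RSG responses (y axis, log2, with IL-4 minus without) of each WT mouse (filled) and each Stat6 KO mouse (open), with bars for means, for the 5 called probe sets and for Ifit1 and Sema4b (x axis). WT and KO mice lie on opposite sides of 0 for Brca1, Axl, Ifit1 and Sema4b.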

How the data were processed

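Affymetrix mouse whole-genome arrays were hybridised with total RNA, 1 array per culture. The authors deposited linear ratios in 1 table. By the study's methods, scans went through GC-RMA and GeneSpring, with every array scaled to its 50th percentile and every probe set divided by its own median; a further division by vehicle controls is not seen in the values. GCOS and GCRMA are named, with no version, in the submitters' processing notes. The ratios hold no depth or level. Their lowest value, 0.01, was reached 37 times in 27 probe sets. The table had 0 columns of other samples and 0 pairs of identical arrays.

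After a log2 transform, the 64 control probe sets among 45101 were dropped. The 24 arrays in 8 groups were fitted together in limma 3.58.1 (R 4.3.3; lmFit and eBayes with no variance trend, since a mean of ratios is no level). The mouse was a block, which left 12 residual and 1.33 prior degrees of freedom. Tests were two-sided, with Benjamini-Hochberg adjustment over 45037 probe sets. Errors are SE and intervals are at 95%; precision is limited by 3 mice per genotype. The fit was tested on simulated data with normal noise and 50 added differences of each size. It called 0 of 50 at 1.5-fold, 4 at 2-fold, 17 at 4-fold and 27 at 8-fold. There were 2 calls among probe sets with no added difference. The labels pair the arrays by mouse; deviations of same-mouse arrays from group means correlated at 0.0106 on average (-0.0229 to 0.0462, 0 of 36 pairs above 0.1).

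By the platform annotation, 34945 probe sets carried 1 symbol, 932 several and 9160 none, and 34741 matched RefSeq genes of GRCm38.p6. For each gene the probe set with the largest standard deviation was used, among those with a median of 1 within 0.001, and for a called gene its called probe set. Named were 17 genes of the study text, of which 15 are analysed here, the 15 largest called differences in each direction with 1 sign in all 3 mice, and up to 4 called members of each of 26 lists (391 of 431 genes measured). Members, lists and rule were chosen with earlier results of these data known.

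Alternatives were the fit with no replicate block, WT arrays alone, a variance trend, the methods' t-test, quantile normalization, centring, an offset of 0.1, probe sets with a median of 1, at least 2-fold, the probe set with the highest mean, and fits without each mouse or WT array. Fits without the 2 arrays with the highest stromal means (WT control vehicle of mouse 2 and KO control RSG of mouse 6), and without those of WT mice 2 and 3 in control vehicle, were chosen after seeing the data. Figures were drawn with matplotlib 3.10.9.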

Additional observations from a re-analysis of the deposited data

Results flagged for a closer look

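The difference of RSG responses, with IL-4 minus without, itself differed between WT and KO macrophages in a direct test for 4 genes with 1 symbol. WT minus KO was 2.79 for Axl, 3.14 for Brca1 (1424629_at), 3.43 for Ifit1 and -7.77 for Sema4b on the log2 scale, with limma adjusted p of 0.00556, 0.00556, 0.0129 and 0.00556. All 3 WT mice lay on 1 side of 0 and all 3 KO mice on the other for each gene. For Axl, the WT difference came from ratios far below 1 with IL-4 and was not called with 0.1 added before the log. On the Axl probe set with the highest mean, 1438621_x_at, WT minus KO was -3.12 (adjusted p = 0.862), and the other probe sets of Brca1 and Sema4b were not called. In KO, 16 of 19 interferon-stimulated genes, Ifit1 included, had a lower difference at unadjusted p under 0.05. No cause was tested.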

How the results depend on the processing

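The 5 called differences of responses in WT depended on the fit. With no replicate block for the mouse, 13 probe sets were called, and a fit on WT arrays alone called 0, with the block or with no replicate block (2836 and 2734 at limma's unadjusted p). The methods' t-test called 0 (3030 at its unadjusted p). A variance trend gave 3, quantile normalization 3 and centring 11, of which 9 were higher and 2 lower. Leaving out a mouse or a WT array gave 0 to 11 calls, with 0 without mouse 3, 2 without mouse 5, 3 without mouse 2 or the WT control RSG array of mouse 2, and 8, 8, 10 and 11 without the control vehicle array of mouse 2 or the IL-4 RSG, IL-4 vehicle or control vehicle array of mouse 3. The count was 13 without the 2 arrays with the highest stromal means, and 12, with 6 lower, without the control vehicle arrays of mice 2 and 3. The other alternatives, a median of 1, an offset of 0.1 and at least 2-fold, gave 5 or 6. For WT minus KO, the 7 calls became 15 with no replicate block, 16 with a variance trend, 1 by the methods' t-test, 12 after quantile normalization, 35 after centring, 18 among probe sets with a median of 1, 4 with the offset and 11 without the stromal-high arrays, and 0 to 10 when a mouse or a WT array was left out. They were 0 without mouse 1, 4, 5 or 6, against 2891, 3529, 2949 and 2751 at limma's unadjusted p, 2 without mouse 2 or 3, and 4 without the control vehicle or IL-4 RSG array of mouse 2. The cause was not tested.

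Some differences changed sign, and none of the changed values was called. Without the control vehicle arrays of mice 2 and 3 the difference was -0.59 for Retnla, -0.26 for Arg1 and 0.21 for Alox15, and without the stromal-high arrays 0.83 for Alox15. On the probe set with the highest mean it was -0.0045 for Stat6, and WT minus KO was -3.12 for Axl. With a mouse or a WT array left out, the difference ran between -0.16 and 1.13 for Angptl4, -0.38 and 0.041 for Cd36, -0.27 and 0.065 for Nr1h3, -0.73 and 3.32 for Retnla, -0.10 and 2.42 for Arg1, and -1.12 and 0.83 for Alox15. With 3 mice and no absolute signal, differences could be missed, large ones included.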
